A study of Mus musculus with 8 samples.

Results

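Neutrophils sorted as CD71+ from mouse brain tumours were compared with CD71+ neutrophils from in vitro cultures, over all genes of the deposited count table. The comparison rests on 4 of the 8 RNA-seq libraries of the series, 2 from tumours and 2 from cultures, chosen by the origin and the surface fraction in their library names. The other 4 libraries are the CD71- neutrophils of the same origins and enter only as a second contrast. For the tumour cells the labels give brain tumour as the tissue and SB28, a mouse glioma cell line, as the cell source. For the culture cells they give naive bone marrow as the tissue and neutrophils generated in vitro as the source. No genotype, strain, age, drug, oxygen level, culture time or pooling of animals is stated for any group, and no control carries an allele or agent that is named. Cells of all groups were sorted by flow cytometry, and their total RNA was depleted of ribosomal RNA and prepared with a stranded kit. The labels name samples 1 and 2 of each group without saying whether they came from separate animals or cultures, so the p-values rest on the spread between libraries alone, and that spread may be technical. Origin is bound to cell source and preparation, and the share of each in the differences below cannot be told apart.

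CD71 is the transferrin receptor, encoded by Tfrc, which carries iron-loaded transferrin into cells and is abundant on dividing precursors. Neutrophils are made in the bone marrow, where granule proteins are produced in successive waves before the cells mature, and in tissue they respond to interleukin 1, TNF and microbial products through NF-kB and to type I interferon through its receptor and IRF9. In low oxygen the prolyl hydroxylases encoded by the Egln genes lose activity, HIF-1 alpha accumulates, and HIF-1 binds a short ACGTG core to raise genes of glycolysis, angiogenesis and mitophagy. The title of the series names hypoxia and the lactylation of histones, a modification fed by lactate, in tumour neutrophils.

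Promoters of 7 genes from 2 gene groups below are shown, chosen after seeing the data. Whether their motifs act in these cells was not tested. They are the 250 bases before the annotated start, read from RefSeq on build GRCm38.p6 (mm10), 5′ to 3′ on the strand of the gene. In the first 3, the capitals mark the interferon-stimulated response element on either strand, searched as 2 runs of GAAA with any 2 bases between them, and all 3 genes were higher in tumour. Rsad2 lies at chr12:26456453-26456702, minus strand, Isg15 at chr4:156200819-156201068, minus strand and Ifit1 at chr19:34640639-34640888, plus strand.
Rsad2: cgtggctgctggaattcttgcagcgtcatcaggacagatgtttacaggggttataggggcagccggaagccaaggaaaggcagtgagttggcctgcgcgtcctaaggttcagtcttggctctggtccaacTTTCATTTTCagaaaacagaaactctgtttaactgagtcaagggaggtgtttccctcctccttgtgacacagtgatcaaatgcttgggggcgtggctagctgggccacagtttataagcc
Isg15: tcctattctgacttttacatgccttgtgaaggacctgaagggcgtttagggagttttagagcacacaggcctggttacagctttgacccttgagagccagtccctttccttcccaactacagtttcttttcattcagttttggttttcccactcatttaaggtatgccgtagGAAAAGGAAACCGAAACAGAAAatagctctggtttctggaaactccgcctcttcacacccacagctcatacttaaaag
Ifit1: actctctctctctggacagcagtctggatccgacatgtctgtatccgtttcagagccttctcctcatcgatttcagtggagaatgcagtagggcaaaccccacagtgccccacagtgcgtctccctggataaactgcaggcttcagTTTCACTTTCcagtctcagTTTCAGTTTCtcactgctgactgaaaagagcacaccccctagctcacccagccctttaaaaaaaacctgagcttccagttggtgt
In the next 4, the capitals mark ACGTG on either strand, the core that HIF-1 binds. Bnip3 (chr7:138909507-138909756, minus strand), Ankrd37 (chr8:45999851-46000100, minus strand) and Egln3 (chr12:54203875-54204124, minus strand) were lower in tumour, and Pfkfb3 (chr2:11553930-11554179, minus strand; 1 of its 2 windows) was higher.
Bnip3: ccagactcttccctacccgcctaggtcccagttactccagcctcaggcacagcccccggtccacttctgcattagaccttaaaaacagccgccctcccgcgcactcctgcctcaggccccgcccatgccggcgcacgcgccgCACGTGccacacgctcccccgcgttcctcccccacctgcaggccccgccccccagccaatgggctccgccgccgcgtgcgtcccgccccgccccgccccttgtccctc
Ankrd37: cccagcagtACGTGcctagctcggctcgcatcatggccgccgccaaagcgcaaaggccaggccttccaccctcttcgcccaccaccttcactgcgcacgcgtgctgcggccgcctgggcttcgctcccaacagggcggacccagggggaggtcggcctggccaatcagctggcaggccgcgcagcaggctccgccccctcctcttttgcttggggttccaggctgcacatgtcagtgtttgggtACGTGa
Egln3: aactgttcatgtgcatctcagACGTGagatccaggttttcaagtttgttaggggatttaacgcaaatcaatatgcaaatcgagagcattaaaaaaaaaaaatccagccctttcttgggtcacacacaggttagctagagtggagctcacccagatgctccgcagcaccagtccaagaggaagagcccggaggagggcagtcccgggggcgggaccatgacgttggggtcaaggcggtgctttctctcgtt
Pfkfb3: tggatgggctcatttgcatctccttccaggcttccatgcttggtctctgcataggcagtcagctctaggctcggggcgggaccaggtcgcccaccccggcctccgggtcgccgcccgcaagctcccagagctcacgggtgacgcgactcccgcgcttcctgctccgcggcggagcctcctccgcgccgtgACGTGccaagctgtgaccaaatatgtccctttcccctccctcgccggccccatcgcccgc

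The interferon-stimulated response element stood in 11 of 26 promoter windows (42.3%) of the interferon list, against 2.98% of all 32851 windows of this length and 2.76% of the 13324 windows of tested genes. ACGTG stood in 17 of 35 windows (48.6%) of the hypoxia list and in 13 of 36 (36.1%) of the glycolysis list, against 16.6% of all windows and 21.0% of those of tested genes. By direction of change, ACGTG stood in 18.9% of the windows of genes at least 2-fold higher in tumour and in 20.2% of those at least 2-fold lower, both close to the share of tested genes. Of the other motifs searched on both strands, the NF-kB motif (GGG, any 5 bases, CC) stood in 25 of 34 windows of the IL-1, TNF and NF-kB list against 45.8% of all windows and 59.9% of those of tested genes. TGANTCA (AP-1) stood in 8 of those 34 windows against 6.75% of all windows and 4.73% of those of tested genes. Of the lists, 22 interferon, 27 hypoxia and 24 glycolysis genes matched a window by symbol, some with more than 1 window. Neighbouring matches can overlap, as those of Isg15 and Bnip3 do. A match describes only the letters in a window.

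The 2 tumour libraries held 11713166 and 11147646 counts and the 2 culture libraries 22615813 and 19385298. Counts from mitochondrial genes made up 0.829% and 1.04% of the tumour libraries and 1.45% and 2.17% of the culture libraries. Of the 150 genes named in the text, 27 share exon positions with a gene of the opposite strand (Aldoa, Alox5ap, Ankrd37, Atf5, BC100530, Bnip3, Cd274, Csf1r, Cx3cr1, Cxcl10, Dusp1, Gpi1, Hdac7, Hif1a, Hspa1a, Ikbkg, Il1b, Irf7, Lss, Mt2, P2ry12, Ptgs1, Sirt1, Slc2a1, Thbs1, Tnc and mt-Co1) and 9 with a gene of the same strand (Cd74, Col3a1, Csf2rb, Ep300, Hif1a, Itgam, Scd2, Slpi and Spp1). The strand setting of the counting is not given in the sources used here, so the counts of these genes are uncertain by what such partners contribute or take. Levels are given as CPM, the counts of a gene per 1000000 counts of its library after TMM scaling, so that 3 counts correspond to 0.092 to 0.29 CPM in these libraries. Tfrc, the transcript of CD71, stood at 103 and 108 CPM in the tumour libraries and 116 and 115 CPM in the culture libraries, just below the culture levels in both tumour libraries, and its log2 fold change of -0.13 (adjusted p = 0.58, SE 0.19) did not pass. The CD71- libraries stood at 187 and 145 CPM in tumour and 131 and 94.4 CPM in culture, so with TMM scaling the transcript was not higher in CD71+ than in CD71- tumour libraries. In tumour it was lower in CD71+ than in CD71-, with a difference of -0.65 on the log2 scale (edgeR, adjusted p = 0.0134, SE 0.19), and in culture the difference of 0.03 did not pass (adjusted p = 0.94). The tumour difference was -0.08 with total counts (adjusted p = 0.769) and 0.40 with the mature neutrophil scaling described below (adjusted p = 0.0836), where the culture difference was 0.70 (adjusted p = 0.00907). With TMM scaling the tumour difference missed the threshold without tumour CD71- replicate 1 (adjusted p = 0.0518) and without either tumour CD71+ library (adjusted p = 0.07 and 0.0519). The fractions are called by their labels, and the surface protein was not measured. The mature neutrophil list had a summed level of 26090 and 23990 CPM in tumour and 7294 and 6374 CPM in culture. Csf2rb, the shared receptor chain for GM-CSF, contributed means of 2860 CPM in tumour and 2744 CPM in culture. It thus weighs more in the culture sum, and the sum does not measure the share of neutrophils. Ly6g, which encodes the antigen most used to sort mouse neutrophils, was low throughout at 6.07 and 9.05 CPM in the tumour libraries and 23.1 and 16.3 CPM in the culture libraries. It was lower in tumour, with a log2 fold change of -1.38 (adjusted p = 8.0e-04, SE 0.28).

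Markers of other cells were not equal in the origins. Of 19 tested macrophage and monocyte markers, 13 were higher and 1 lower in tumour, with sums of 4214 and 4612 CPM in tumour against 1808 and 1521 CPM in culture. All 10 microglia markers were higher, with sums of 931 and 1376 CPM against 176 and 143 CPM. C1qa, a subunit of the complement component C1q, which tissue macrophages make, stood at 411 and 481 CPM in the tumour libraries and 0.733 and 0.381 CPM in the culture libraries. The libraries did not overlap, and the log2 difference was 9.61 (adjusted p = 1.8e-10, SE 0.32). Sall1, a transcription factor of microglia, stood at 62.99 and 92.5 CPM in tumour and had no count in either culture library, at least 795-fold higher when the culture is set at 3 counts per library. P2ry12, a purine receptor of microglia, stood at 69.1 and 109.9 CPM against 0.977 and 0.934 CPM, a log2 difference of 6.54 (adjusted p = 8.4e-09, SE 0.37). Csf1r, the receptor for macrophage colony-stimulating factor, and Adgre1, which encodes the F4/80 antigen, were present in both origins. Csf1r stood at 850.4 and 1034 CPM against 792 and 704 CPM and Adgre1 at 109.8 and 121 CPM against 98.5 and 85.3 CPM, and neither passed (adjusted p = 0.11 and adjusted p = 0.095). Both passed as higher in tumour with DESeq2 size factors (adjusted p = 0.0483 and 0.0431) and by the DESeq2 Wald test (adjusted p = 0.0398 and 0.0484), and Adgre1 with the stricter filter (adjusted p = 0.0403). Both were negative with total counts and with the mature neutrophil scaling. Of 16 glioma and neural markers listed 9 were tested, and 8 of these were higher. Among them was Ptprz1, a receptor phosphatase of glial cells, at 26.6 and 2.92 CPM with no culture count. Only 1 of the 9 reached 5 CPM in the culture CD71+ libraries. Markers without culture counts passed the filter through tumour counts alone, so the count of rises is partly fixed by the filter. Of 8 endothelial and stromal markers 7 were higher and 1, an endothelial marker, was lower, with a log2 fold change of -0.683. Their sums were 273 and 198 CPM in tumour against 136 and 129 CPM in culture. Among the rises was Col3a1, a fibrillar collagen, at 48.1 and 34.5 CPM against 0.0611 and 0.0346 CPM, which is too few culture counts for a fold. Of 14 lymphocyte markers listed 5 were tested and 3 were higher, with the same limit, and each of the 5 was below 5 CPM. With 1 library left out the filter kept 16852 to 17221 genes rather than 15975, so markers not tested in the main fit could enter the lists. More glioma and neural markers were then higher without any 1 of the 4 CD71- libraries, over other members than the 9 above. The number of lymphocyte markers higher also grew without any 1 of the CD71- libraries or either tumour CD71+ library, with the same limit. Macrophage markers lower numbered 2 without tumour CD71+ replicate 2 or either tumour CD71- library. In the tumour CD71- libraries the macrophage sum was 969 and 959 CPM and C1qa stood at 33.98 and 46.8 CPM. The culture CD71- libraries had macrophage sums of 1021 and 1080 CPM, so that sum was not higher in tumour in the CD71- fraction. Among CD71+ libraries most of these markers moved with the origin, and their part in the results below was not tested. In bulk RNA, fewer cells of a type and less RNA per cell cannot be told apart.

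**Figure D1:**
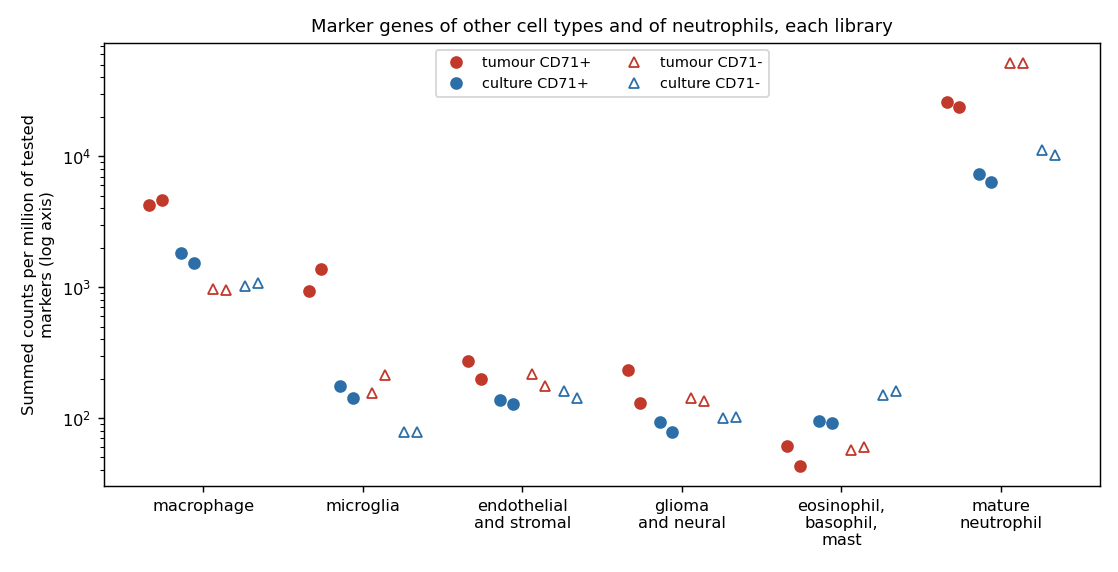
Summed CPM (log axis) of the tested markers of each cell type in each library, with filled circles for CD71+ and open triangles for CD71-, red for tumour and blue for culture. The 2 tumour CD71+ libraries stand highest for the macrophage markers (4214 and 4612 CPM) and the microglia markers (931 and 1376 CPM), while the mature neutrophil sum is highest in the tumour CD71- libraries (51760 and 51490 CPM).

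The difference between the origins was broad. Of 15975 genes tested with edgeR's quasi-likelihood test at a Benjamini-Hochberg adjusted p under 0.05, 4836 (30.3%) were higher in tumour and 4409 (27.6%) were lower. At least 2-fold, 3968 (24.8%) were higher and 3091 (19.3%) lower. Changes of 8-fold or more were met by 1719 genes upward and 587 downward. The tumour and culture CD71+ libraries did not overlap in 6258 tested genes upward and 6915 downward. A lack of overlap, where given for a gene, therefore sets it apart little from the other tested genes. Counts over gene lists likewise stand beside the 30.3% higher and 27.6% lower over all tested genes. The median log2 fold change over all tested genes was -0.085, with quartiles of -0.907 and 1.119. The direction of small changes depends on the scaling. With total counts in place of TMM the median of all genes moved by -0.674 and 3289 genes were higher against 7948 lower, so that 29.3% of calls were upward rather than 52.3%. When libraries were instead scaled on the mature neutrophil list, itself mostly higher in tumour, the median moved by -1.872, and 1804 genes were higher against 11719 lower (13.3% upward). Under these 2 scalings rises of less than about those shifts end or turn, while falls grow. Genes near 0 shift with it: Tfrc stood at -0.801 with total counts and at -2.001 with the mature neutrophil scaling, and Ldha at -0.79 and -1.98.

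**Figure D2:**
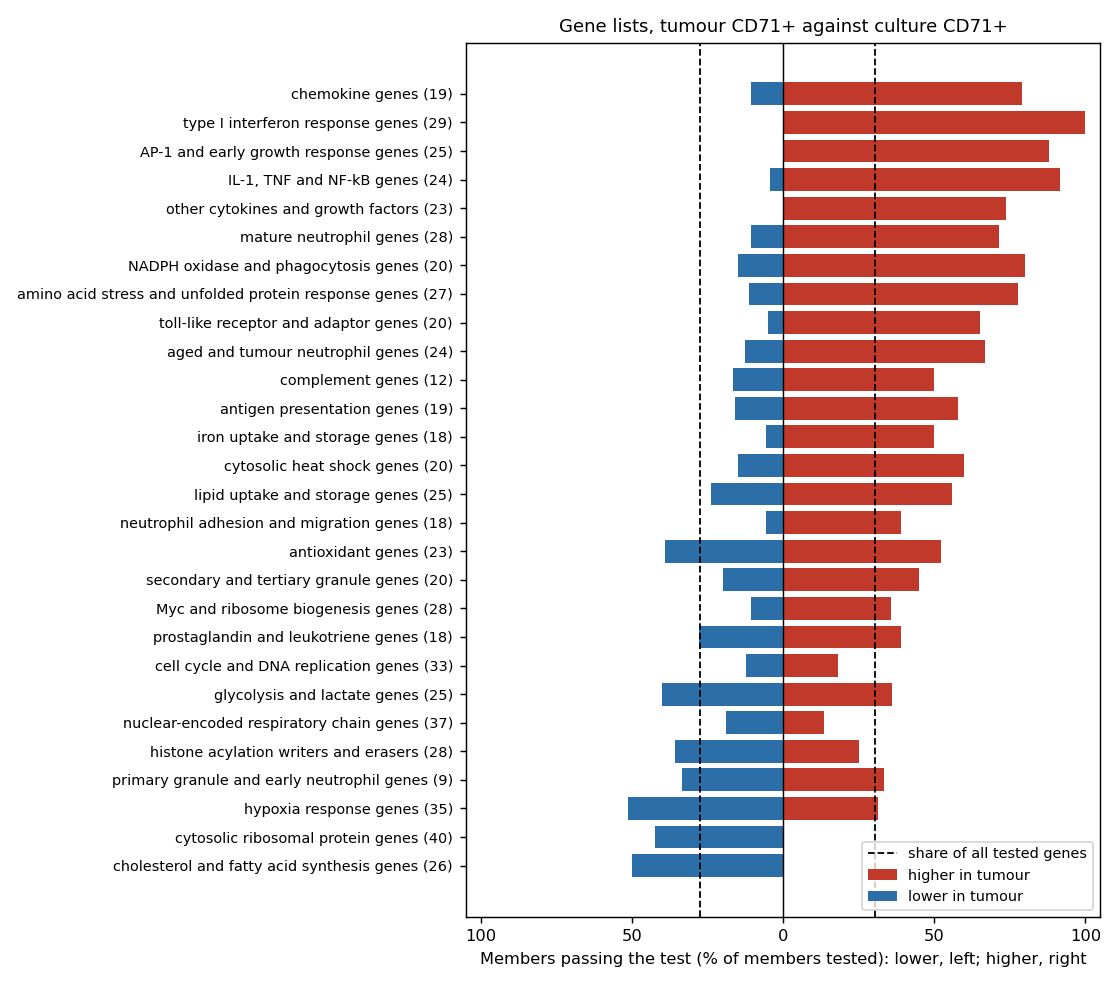
Share of the tested members of each gene list that passed the test, higher in tumour to the right and lower to the left, with the number tested in parentheses and lists ordered by median log2 fold change. Dashed lines mark the shares over all tested genes, 30.3% higher and 27.6% lower; the interferon, IL-1 and NF-kB, AP-1 and chemokine lists lie far to the right, and the cholesterol, ribosomal protein and hypoxia lists have more lower than higher members.

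Inflammatory genes were among the highest of the tumour libraries. Per kilobase of exon, the highest tumour protein-coding genes after the mitochondrial mt-Co1 (4337 CPM per kilobase) were Il1b at 3864, Ccl3 at 3749, Thbs1 at 3525 and Cxcl2 at 2969. The same 4 genes stood at 49.3, 118.7, 1660 and 75.6 CPM per kilobase in culture. In culture the highest after mt-Co1 (4903) were Psap at 2139, Chil3 at 1790 and Thbs1 at 1660, and in tumour Psap and Chil3 stood at 540.6 and 346.5. Psap, the precursor of the lysosomal saposins, fell from 6352 and 5385 CPM in culture to 1472 and 1495 CPM in tumour, a log2 fold change of -1.98 (adjusted p = 1.3e-06, SE 0.20). Chil3, a secreted chitinase-like protein of myeloid cells, stood at 467 and 664 CPM in the tumour libraries and 3022 and 2821 CPM in the culture libraries and fell by 2.37 (adjusted p = 0.0014, SE 0.43) on the log2 scale. Slfn4, a Schlafen gene of myeloid cells, rose from 75.2 and 78.4 CPM to 5766 and 6765 CPM, a log2 fold change of 6.35 (adjusted p = 1.8e-10, SE 0.25). Acod1, which makes itaconate, rose from 62.7 and 53.6 CPM to 4817 and 4258 CPM, a log2 fold change of 6.29 (adjusted p = 8.1e-11, SE 0.22). In each of these genes the tumour and culture libraries lay apart with no overlap, as they did for most tested genes.

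Genes of interleukin 1, TNF and NF-kB signalling were higher in tumour almost without exception. Of 24 tested members 22 rose and 1 fell, with a median log2 fold change of 2.72. Il1b, the cytokine interleukin 1 beta (GRCm38.p6 chr2:129364570-129371139, minus strand), stood at 7781 and 6957 CPM in the tumour libraries and 90.1 and 98.03 CPM in the culture libraries. Both tumour libraries stood far above both culture libraries, a log2 fold change of 6.29 (adjusted p = 9.2e-11, SE 0.22). Nlrp3, the sensor of the inflammasome that releases interleukin 1 beta, stood at 5579 and 4803 CPM against 159 and 169.7 CPM (log2 fold change 4.98, adjusted p = 5.8e-10, SE 0.22). The feedback inhibitors of NF-kB were higher as well. Nfkbiz, a nuclear IkB protein, stood at 3413 and 3205 CPM against 66.8 and 67.6 CPM (log2 fold change 5.62, adjusted p = 1.8e-10, SE 0.22). Tnfaip3, the ubiquitin-editing enzyme A20, stood at 3203 and 3355 CPM against 109 and 114 CPM (log2 fold change 4.88, adjusted p = 2.3e-10, SE 0.19). Il1rn, the antagonist of the interleukin 1 receptor, stood at 2756 and 2356 CPM in the tumour libraries and 779 and 634 CPM in the culture libraries, with no overlap and a smaller log2 fold change of 1.85 (adjusted p = 1.0e-06, SE 0.18) that fell to just below 0 with the mature neutrophil scaling. Ikbkg, the regulatory subunit of the IkB kinase, was the member that fell, from 68.005 and 69.7 CPM to 33.9 and 29.5 CPM (adjusted p = 7.8e-05). With libraries scaled on the mature neutrophil list, 18 members were higher and 3 lower. Falls numbered 2 without culture CD71- replicate 1 or 2 or tumour CD71+ replicate 1. In the tumour CD71- libraries Il1b stood at 13484 and 11511 CPM and Nlrp3 at 12232 and 9238 CPM, above the tumour CD71+ levels. The part of other cells in these levels was not tested.

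Chemokine genes moved the same way. Of 19 tested, 15 rose and 2 fell, with a median log2 fold change of 4.27. Cxcl2, a ligand of CXCR2 that attracts neutrophils, stood at 6751 and 5529 CPM in the tumour libraries and 167 and 146 CPM in the culture libraries. The libraries did not overlap, and the log2 fold change was 5.30 (adjusted p = 2.2e-08, SE 0.32). Ccl3, a chemokine ligand of CCR1, stood at 2928 and 2815 CPM against 104 and 77.8 CPM (log2 fold change 4.98, adjusted p = 6.8e-10, SE 0.23). Ccl12, a monocyte chemokine, stood at 16.95 and 29.3 CPM in tumour with no count in culture, at least 237-fold higher. Cxcl10, an interferon-induced ligand of CXCR3, stood at 123 and 140.3 CPM against 1.01 and 0.727 CPM (log2 fold change 7.22, adjusted p = 1.4e-10, SE 0.27). The members that fell were Ccl9, from 464 and 377 CPM to 238 and 246 CPM (adjusted p = 8.5e-04), and Ccl17, from 8.12 and 6.23 CPM to 0 and 1.79 CPM (adjusted p = 0.025), both chemokines of myeloid cells. The fall of Ccl17 did not pass without culture CD71+ replicate 1 or 2 (adjusted p = 0.122 and 0.0889), which left 1 fall in the list. Ccl6, the chemokine with the highest level in culture, stood at 1636 and 1631 CPM against 2227 and 1677 CPM and did not pass (adjusted p = 0.25).

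Among other cytokines and growth factors 17 of 23 rose and none fell. Osm, oncostatin M, which acts on stromal cells, stood at 1168 and 1051 CPM in the tumour libraries and 55.1 and 45.95 CPM in the culture libraries, a log2 fold change of 4.46 (adjusted p = 6.0e-10, SE 0.20). Il23a, a subunit of interleukin 23, stood at 99.8 and 96.8 CPM against 0.153 and 0.381 CPM (log2 fold change 8.51, adjusted p = 5.5e-10, SE 0.37). Csf3, which encodes the granulocyte growth factor G-CSF, stood at 31.5 and 14.3 CPM against 0.0611 and 0 CPM, with 2 counts in culture. Vegfa, the main angiogenic factor, stood at 955 and 689.99 CPM in the tumour libraries and 658 and 729 CPM in the culture libraries, and its log2 fold change of 0.25 (adjusted p = 0.35, SE 0.22) did not pass. Thbs1, thrombospondin 1, an inhibitor of angiogenesis, was among the highest genes of both origins and rose from 10949 and 9208 CPM to 23706 and 19104 CPM, a log2 fold change of 1.09 (adjusted p = 7.8e-04, SE 0.22) that turned negative with the mature neutrophil scaling. With that scaling 11 members of the list were higher and 9 lower. Without culture CD71- replicate 1 or 2 or tumour CD71+ replicate 1 there was 1 fall.

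Prostaglandin and leukotriene genes moved in both directions. Of 18 tested, 7 rose and 5 fell, not far from the 30.3% higher and 27.6% lower over all tested genes. Ptgs2, the inducible cyclooxygenase COX-2 (GRCm38.p6 chr1:150100031-150108227, plus strand), stood at 4729.9 and 4504 CPM in the tumour libraries and 20.001 and 13.5 CPM in the culture libraries, among the largest gains in level in the table. The log2 fold change was 8.10 (adjusted p = 3.4e-09, SE 0.38), and the tumour CD71- libraries stood at 7531 and 7778 CPM. Ptgs1, the constitutive cyclooxygenase, fell instead, from 236 and 224 CPM to 93.7 and 102 CPM, a log2 fold change of -1.23 (adjusted p = 1.6e-05, SE 0.16). Hpgds, a synthase of prostaglandin D2, rose from 2.96 and 3.60 CPM to 85.5 and 112 CPM (adjusted p = 1.3e-09). Alox5, the first enzyme of leukotriene synthesis, fell from 147 and 132 CPM to 76.8 and 64.8 CPM (adjusted p = 1.7e-04). Alox5ap, its partner protein, stood at 217 and 248 CPM against 276 and 210.2 CPM and did not pass (adjusted p = 0.82).

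**Figure D3:**
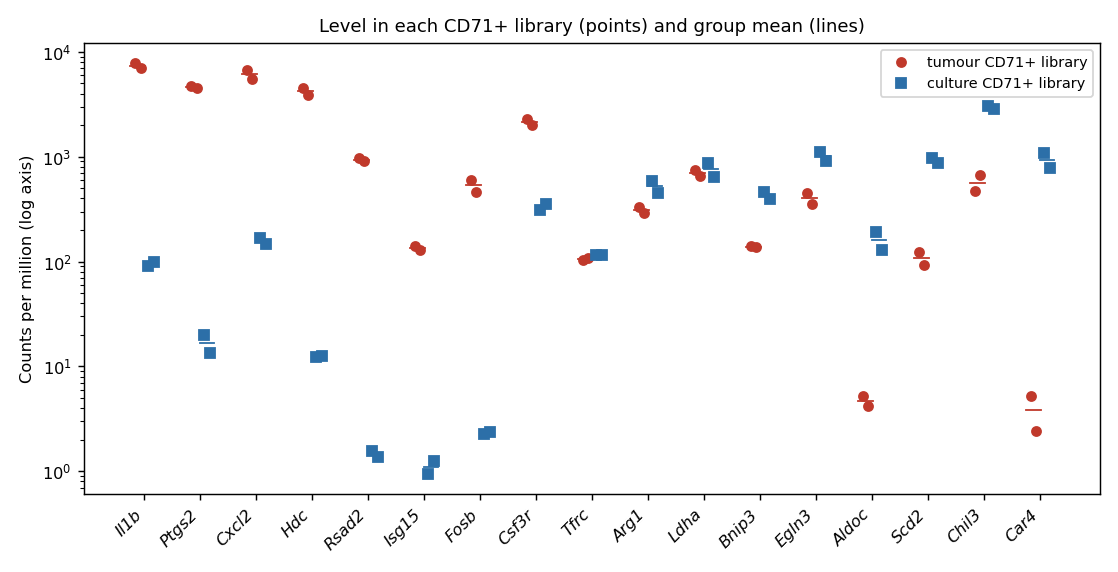
CPM (log axis) of 17 genes in each CD71+ library, red circles for tumour and blue squares for culture, with a line at each group mean. Il1b, Ptgs2, Cxcl2, Hdc, Rsad2, Isg15, Fosb and Csf3r stand higher in tumour, Tfrc and Ldha overlap or nearly so, and Bnip3, Egln3, Aldoc, Scd2, Chil3 and Car4 stand higher in culture.

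Every tested gene of the type I interferon response was higher in tumour. All 29 members rose, each at least 2-fold, with a median log2 fold change of 4.001 and summed levels of 4691 and 4676 CPM in tumour against 348 and 342 CPM in culture. Rsad2, the antiviral enzyme viperin (GRCm38.p6 chr12:26442746-26456452, minus strand), stood at 970.3 and 904 CPM in the tumour libraries and 1.56 and 1.38 CPM in the culture libraries. Both culture libraries were far below both tumour libraries, a log2 fold change of 9.30 (adjusted p = 1.3e-11, SE 0.23). Isg15, a ubiquitin-like modifier, stood at 141 and 130.1 CPM against 0.947 and 1.25 CPM (log2 fold change 6.94, adjusted p = 8.1e-11, SE 0.22). Ifit1, which binds foreign RNA ends, stood at 142 and 182 CPM against 0.214 and 0.657 CPM (log2 fold change 8.55, adjusted p = 3.5e-09, SE 0.40). Ifit3b had no count in culture and stood at 32.7 and 56.6 CPM in tumour, at least 457-fold higher, although reads of Ifit3b and its near-identical neighbour Ifit3 may not be separable. Oasl2, a member of the oligoadenylate synthetase family, stood at 543 and 545 CPM against 11.7 and 13.5 CPM (log2 fold change 5.43, adjusted p = 8.4e-11, SE 0.19). Irf7, the factor that amplifies the response, stood at 159 and 128 CPM against 10.4 and 12.8 CPM (log2 fold change 3.62, adjusted p = 3.1e-08, SE 0.25). With total counts all 29 remained higher, and with the mature neutrophil scaling 25 were higher and none lower. In the tumour CD71- libraries Rsad2 stood at 1566 and 1566 CPM and Isg15 at 203 and 207 CPM.

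AP-1 and other immediate early genes, which are induced within minutes by many stimuli, were higher too. Of 25 tested, 22 rose and none fell, with a median of 3.69. Fosb, an AP-1 subunit, stood at 604 and 462 CPM in the tumour libraries and 2.26 and 2.35 CPM in the culture libraries, with no overlap and a log2 fold change of 7.85 (adjusted p = 8.1e-11, SE 0.25). Nr4a1, an orphan nuclear receptor, stood at 1583 and 925 CPM against 5.68 and 5.29 CPM (log2 fold change 7.83, adjusted p = 2.4e-10, SE 0.31), and Dusp1, a phosphatase that switches off MAP kinases, at 3279.8 and 2566 CPM against 28.4 and 29.1 CPM (log2 fold change 6.67, adjusted p = 1.1e-10, SE 0.24). Egr1 rose from 136 and 172 CPM to 2183 and 1799 CPM, a log2 fold change of 3.69 (adjusted p = 4.7e-09, SE 0.21). For these genes too, origin and preparation cannot be told apart.

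Genes of cytosolic heat shock and of amino acid and protein folding stress were mostly higher. Of 20 heat shock genes 12 rose and 3 fell. Hspa1a, an inducible HSP70, stood at 180.3 and 162 CPM against 0.183 and 0.0346 CPM (log2 fold change 10.46, adjusted p = 1.5e-10, SE 0.39), with reads that its near-identical copy Hspa1b may share. Hsp90aa1, the inducible HSP90, stood at 588 and 648 CPM against 101 and 86.1 CPM (log2 fold change 2.73, adjusted p = 3.5e-08, SE 0.19). The constitutive Hsp90ab1 had a log2 fold change of -0.57 (adjusted p = 0.017, SE 0.19), which did not pass when replicate 1 of either the culture or the tumour CD71+ libraries was left out (adjusted p = 0.178 and 0.0935). Of 27 amino acid stress and unfolded protein response genes 21 rose and 3 fell. Slc7a11, the cystine importer that supplies glutathione synthesis, stood at 3259 and 3013 CPM in the tumour libraries and 212 and 214 CPM in the culture libraries, a log2 fold change of 3.88 (adjusted p = 1.5e-09, SE 0.20). Hspa5, the main chaperone of the endoplasmic reticulum, stood at 1258 and 1293 CPM against 133 and 113 CPM (log2 fold change 3.37, adjusted p = 6.1e-09, SE 0.20). Chac1, a glutathione-degrading target of ATF4, stood at 32.7 and 18.6 CPM against 0.824 and 0.692 CPM (log2 fold change 5.06, adjusted p = 1.6e-06, SE 0.45). Atf5, another factor of this response, fell from 25.3 and 27.1 CPM to 10.2 and 8.77 CPM (adjusted p = 3.1e-04). With the mature neutrophil scaling 6 heat shock genes were higher and 10 lower, and 7 stress genes were higher and 11 lower, so the direction of both lists turned there. Without culture CD71+ replicate 1 each list had 1 fall, as had the stress list without tumour CD71+ replicate 1.

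Genes of mature neutrophils were mostly higher in tumour. Of 28 tested, 20 rose and 3 fell, with a median of 1.71 and with 16 higher and 7 lower under total counts. Hdc, histidine decarboxylase, which makes histamine (GRCm38.p6 chr2:126593667-126619299, minus strand), stood at 4534 and 3849.7 CPM in the tumour libraries and 12.4 and 12.6 CPM in the culture libraries. Both culture libraries were low and both tumour libraries high, a log2 fold change of 8.39 (adjusted p = 8.1e-11, SE 0.27). G0s2, an inhibitor of fat breakdown, stood at 730.5 and 537 CPM against 3.08 and 3.18 CPM (log2 fold change 7.66, adjusted p = 8.1e-11, SE 0.26). Csf3r, the G-CSF receptor, stood at 2302 and 1999 CPM against 312 and 351 CPM (log2 fold change 2.70, adjusted p = 5.1e-08, SE 0.20), and Mxd1, a MYC antagonist of late granulocytes, at 4118 and 3614 CPM against 299.5 and 267 CPM (log2 fold change 3.77, adjusted p = 1.7e-09, SE 0.19). Other members did not move with these. Csf2rb, the shared receptor chain for GM-CSF, stood at 3196 and 2523 CPM in the tumour libraries and 2866 and 2622 CPM in the culture libraries, a log2 fold change of 0.06 (adjusted p = 0.81, SE 0.19). Itgam, the integrin CD11b, stood at 364 and 368 CPM against 354 and 319 CPM and did not pass (adjusted p = 0.61). Stfa2 and BC100530, stefins whose close copies may share reads, fell by 1.31 and 1.37, together with Ly6g. Without tumour CD71+ replicate 1 the fall of Stfa2 did not pass (adjusted p = 0.0561).

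Granule genes did not move as a block. Of 20 secondary and tertiary granule genes 9 rose and 4 fell, where 30.3% of all tested genes rose and 27.6% fell. Slpi, a protease inhibitor, stood at 528 and 452 CPM against 31.5 and 26.9 CPM (log2 fold change 4.07, adjusted p = 1.6e-09, SE 0.21), and Chil1, a chitinase-like granule protein, at 183 and 186 CPM against 19.2 and 17.5 CPM (log2 fold change 3.33, adjusted p = 1.5e-09, SE 0.17). Padi4, the enzyme that citrullinates histones in neutrophil extracellular traps, fell from 119 and 132 CPM to 38.3 and 34.1 CPM, a log2 fold change of -1.79 (adjusted p = 1.2e-05, SE 0.22). Lyz2, lysozyme, stood at 889.8 and 1071 CPM against 905 and 661 CPM and did not pass (adjusted p = 0.15). Mmp8, neutrophil collagenase, stood at 118 and 352 CPM in the tumour libraries and 1591 and 1039.8 CPM in the culture libraries. The tumour libraries were the lower ones, but its log2 fold change of -2.49 (adjusted p = 0.11, SE 1.04) did not pass. It passed without tumour CD71- replicate 1 or 2 (adjusted p = 0.00307 and 0.00319), libraries that enter the fit through the spread. It also passed with CD71+ libraries alone (adjusted p = 0.0158), by the DESeq2 Wald test (adjusted p = 0.0197) and with the mature neutrophil scaling (adjusted p = 0.022). With total counts 5 members were higher and 6 lower. Of 9 primary granule and early genes 3 rose and 3 fell, near the shares over all tested genes, and Elane, Ctsg and Prss57 were too low to be tested.

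The counts of the 4 lists that follow stand beside 30.3% higher and 27.6% lower over all tested genes. Of 20 NADPH oxidase and phagocytosis genes 16 rose and 3 fell. Fcgr4, an activating Fc receptor, stood at 107 and 111 CPM against 10.3 and 6.99 CPM (log2 fold change 3.65, adjusted p = 1.7e-08, SE 0.23), and Mertk, a receptor for dying cells and also a macrophage marker, at 109.9 and 232 CPM against 17.4 and 15.4 CPM (log2 fold change 3.38, adjusted p = 1.1e-05, SE 0.35). Among the falls was Cybb, the catalytic subunit of the oxidase, from 519 and 395 CPM to 231 and 229.9 CPM, a log2 fold change of -0.99 (adjusted p = 5.6e-04, SE 0.19). Cyba, the membrane partner of Cybb, had a log2 fold change of -0.59 (adjusted p = 0.048, SE 0.24) that did not pass without either culture CD71+ library, either tumour CD71- library or tumour CD71+ replicate 2, nor with DESeq2. Of 20 toll-like receptor and adaptor genes 13 rose and 1 fell. Cd14, the co-receptor for lipopolysaccharide, stood at 3173 and 1977 CPM in the tumour libraries and 262 and 248 CPM in the culture libraries, a log2 fold change of 3.34 (adjusted p = 3.4e-08, SE 0.23). Of 19 antigen presentation genes 11 rose and 3 fell. Cd80, a co-stimulatory ligand, stood at 601 and 575 CPM against 53.1 and 53.6 CPM (log2 fold change 3.46, adjusted p = 1.3e-08, SE 0.22), H2-D1, a class I heavy chain, rose by 2.17 (adjusted p = 1.0e-07, SE 0.17), and Cd74, the invariant chain of class II, fell by 0.98 (adjusted p = 9.6e-04, SE 0.20). Of 18 adhesion and migration genes 7 rose, not far from the share over all tested genes, and 1 fell. Cd44, a hyaluronan receptor, stood at 3806 and 3506 CPM against 795 and 645 CPM (log2 fold change 2.34, adjusted p = 2.6e-07, SE 0.20). With the mature neutrophil scaling the medians of these 4 lists were negative, and that of the adhesion list was negative with total counts too. The adhesion list had 2 falls without culture CD71- replicate 1 or 2 or culture CD71+ replicate 2, and the toll-like receptor list had none without culture CD71+ replicate 1 or tumour CD71+ replicate 2.

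Members of the aged and tumour neutrophil list, genes known from ageing neutrophils and from neutrophils in tumours, were higher for 16 of 24 members and lower for 3. Cd274, the immune checkpoint ligand PD-L1, stood at 1079.6 and 940.3 CPM in the tumour libraries and 286 and 255 CPM in the culture libraries, with no overlap and a log2 fold change of 1.90 (adjusted p = 1.6e-06, SE 0.19). Olr1, an oxidised lipid receptor used as a marker of suppressive neutrophils, stood at 379.8 and 293 CPM against 96.2 and 94.4 CPM (log2 fold change 1.82, adjusted p = 1.9e-06, SE 0.19). With the mature neutrophil scaling both were near 0, Olr1 just below, and 7 members of the list were higher and 13 lower. Falls numbered 1 without culture CD71+ replicate 1 or tumour CD71+ replicate 2. Arg1, arginase 1, which depletes arginine, was lower in tumour CD71+ cells: it stood at 333 and 287 CPM in the tumour libraries and 588 and 451 CPM in the culture libraries, apart from each other, with a log2 fold change of -0.74 (adjusted p = 0.019, SE 0.24). That fall did not pass without culture CD71+ replicate 1 (log2 fold change -0.577, adjusted p = 0.12), nor when tumour CD71+ replicate 2 was left out (-0.688, adjusted p = 0.0765). Nos2, the inducible nitric oxide synthase, fell from 136 and 103 CPM to 53.3 and 71.3 CPM (adjusted p = 0.0041). Tnfrsf10b, a death receptor for TRAIL, stood at 5.10 and 4.995 CPM against 3.36 and 3.77 CPM and did not pass (adjusted p = 0.19).

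The hypoxia response list was lower more often than higher in the tumour. Of 35 tested genes 11 rose and 18 fell, with a median log2 fold change of -0.45. The share of rises was close to the 30.3% over all tested genes, of which 27.6% fell. Among the falls were genes known as direct targets of HIF-1. Egln3, an oxygen-sensing prolyl hydroxylase, stood at 447 and 353 CPM in the tumour libraries and 1120.05 and 916 CPM in the culture libraries. Both culture libraries were above both tumour libraries, a log2 fold change of -1.35 (adjusted p = 2.7e-05, SE 0.18). Egln1, the main prolyl hydroxylase, fell from 272 and 247 CPM to 52.5 and 37.7 CPM (adjusted p = 1.0e-07). Bnip3, a mitophagy receptor, fell from 465 and 394 CPM to 140.2 and 138 CPM, a log2 fold change of -1.63 (adjusted p = 1.5e-06, SE 0.16). Ankrd37, a small ankyrin protein, fell from 38.8 and 32.9 CPM to 9.82 and 10.8 CPM (adjusted p = 3.6e-06). The windows of Egln3 and Ankrd37 shown above hold 1 and 2 ACGTG cores. That of Bnip3 holds 1 site, CACGTG, which reads ACGTG on both strands and so counts as 2 matches. Pdk1, the kinase that keeps pyruvate out of mitochondria, fell by 2.23 (adjusted p = 1.1e-07, SE 0.17) on the log2 scale. Selenbp1, a selenium-binding protein, fell from 198 and 138 CPM to 7.32 and 4.15 CPM (adjusted p = 3.4e-07). P4ha2, a collagen prolyl hydroxylase, fell from 32.4 and 29.5 CPM to 5.49 and 3.96 CPM (adjusted p = 1.7e-06). Ero1l, an oxidase of the endoplasmic reticulum, stood at 947 and 839 CPM against 2867 and 2412 CPM and fell by 1.56 (adjusted p = 2.9e-05, SE 0.21).

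Other members of the hypoxia list rose. Hif1a, the oxygen-regulated subunit itself, stood at 725 and 706 CPM in the tumour libraries and 149 and 122 CPM in the culture libraries, a log2 fold change of 2.40 (adjusted p = 5.6e-08, SE 0.18). Its protein was not measured. Pfkfb3, which makes the activator of phosphofructokinase, stood at 1090.1 and 1060.3 CPM against 147 and 149 CPM (log2 fold change 2.86, adjusted p = 9.8e-09, SE 0.17), with 1 ACGTG core in the window shown. Plaur, the urokinase receptor, stood at 1888 and 1169.5 CPM against 205 and 211 CPM (log2 fold change 2.88, adjusted p = 2.4e-07, SE 0.24). With total counts 7 members were higher and 22 lower, and without culture CD71+ replicate 2 the number of rises was 7 rather than 11. Oxygen in the cultures and tumours is not stated, so the levels are a comparison of these preparations and not of low with normal oxygen.

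Glycolysis genes moved in both directions. Of 25 tested, 9 rose and 10 fell, with a median of -0.10. Over all tested genes 30.3% rose and 27.6% fell. Among the rises, Slc2a1, the glucose transporter GLUT1, stood at 1139.8 and 744 CPM in the tumour libraries and 556 and 502 CPM in the culture libraries, a log2 fold change of 0.83 (adjusted p = 0.0033, SE 0.21). Without tumour CD71+ replicate 1 it was 0.472 and did not pass (adjusted p = 0.0998). Hk2, hexokinase 2, rose from 345 and 305 CPM to 787 and 667 CPM (adjusted p = 2.2e-04), and Slc16a3, the lactate exporter MCT4, from 318 and 336 CPM to 947 and 569 CPM (adjusted p = 0.001). Among the falls, Gpi1, glucose phosphate isomerase, went from 1826 and 1404 CPM to 401 and 395 CPM, a log2 fold change of -2.02 (adjusted p = 4.5e-07, SE 0.18). Aldoa, aldolase A, fell by 1.40 (adjusted p = 5.1e-04, SE 0.26) and Pgk1, phosphoglycerate kinase, by 1.14 (adjusted p = 2.5e-04, SE 0.20). Aldoc, aldolase C, fell from 191 and 130.2 CPM to 5.20 and 4.24 CPM, a log2 fold change of -5.09 (adjusted p = 3.5e-09, SE 0.27). Ldha, the lactate dehydrogenase that makes lactate, stood at 744 and 659 CPM in the tumour libraries and 877 and 639 CPM in the culture libraries. Its libraries overlapped in part, and the log2 fold change of -0.11 (adjusted p = 0.64, SE 0.19) did not pass. Ldhb, the form that favours pyruvate, rose from 2.05 and 1.25 CPM to 19.4 and 31.01 CPM (adjusted p = 1.3e-06). The rises of Slc2a1, Hk2 and Slc16a3 turned negative with the mature neutrophil scaling, and without tumour CD71+ replicate 2 the number of falls was 6 rather than 10.

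**Figure D4:**
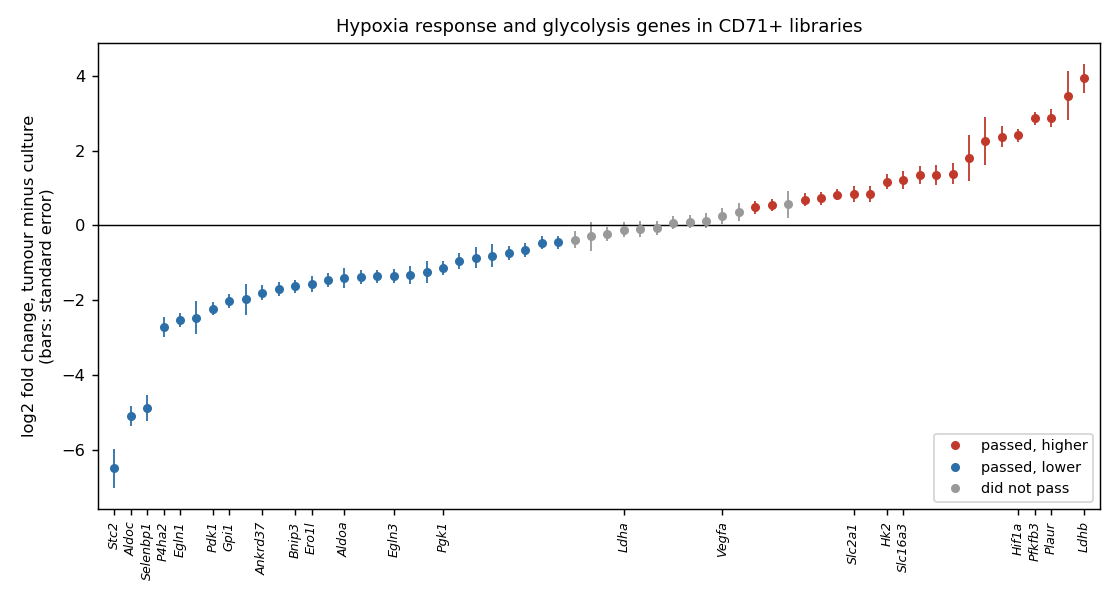
Log2 fold change, tumour minus culture, of each tested hypoxia and glycolysis gene in the CD71+ libraries, with bars of 1 standard error; red passed and higher, blue passed and lower, grey did not pass, and genes named in the text labelled. The order runs from Stc2 (-6.49) and Aldoc (-5.09) to Ldhb (3.92), with Ldha and Vegfa among the grey points near 0.

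Enzymes that write or erase histone acyl marks moved in both directions: of 28 tested, 7 rose and 10 fell. These counts are not far from the 30.3% higher and 27.6% lower over all tested genes. Ep300, the acetyltransferase p300, which is also reported to write lactyl marks, stood at 328 and 288 CPM in the tumour libraries and 374 and 356 CPM in the culture libraries, and its log2 fold change of -0.24 (adjusted p = 0.25, SE 0.18) did not pass. Sirt1, a deacylase, rose from 17.2 and 17.3 CPM to 84.5 and 65.3 CPM (adjusted p = 1.2e-06). Hdac7, a class IIa deacetylase, fell from 87.4 and 107 CPM to 24.4 and 14.6 CPM (adjusted p = 2.5e-06). Acly, which makes acetyl-CoA from citrate, fell from 425 and 337 CPM to 142 and 123 CPM (adjusted p = 7.2e-06). With total counts 5 members were higher and 18 lower.

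No gene of sterol and fatty acid synthesis rose. Of 26 tested genes 13 fell and 13 did not pass, with sums of 824 and 635 CPM in tumour against 2072 and 1935 CPM in culture. Scd2, a desaturase of fatty acids, stood at 124 and 93.7 CPM in the tumour libraries and 973 and 870.2 CPM in the culture libraries. Both culture libraries stood well above both tumour libraries, a log2 fold change of -3.08 (adjusted p = 2.6e-08, SE 0.21). Lss, lanosterol synthase, fell from 43.2 and 44.5 CPM to 5.97 and 4.34 CPM (adjusted p = 2.8e-06). No member was higher with total counts or with the mature neutrophil scaling, where 21 and 26 were lower.

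Of 25 lipid uptake and storage genes 14 rose and 6 fell, beside 30.3% higher and 27.6% lower over all tested genes. Abca1, which exports cholesterol, stood at 1876 and 1791 CPM in the tumour libraries and 117 and 92.5 CPM in the culture libraries, a log2 fold change of 4.13 (adjusted p = 3.3e-09, SE 0.22). Dgat1, which makes triglyceride, rose from 60.8 and 55.1 CPM to 1040.2 and 926 CPM, a log2 fold change of 4.08 (adjusted p = 1.7e-09, SE 0.21). Apoe, a lipid carrier made by macrophages, rose from 29.1 and 20.6 CPM to 765 and 701 CPM, a log2 fold change of 4.88 (adjusted p = 4.8e-10, SE 0.21), beside the macrophage sums above. Plin2, which coats lipid droplets, rose from 185 and 146 CPM to 951 and 948 CPM (adjusted p = 3.7e-08). The falls included Lpl, lipoprotein lipase, which went from 463 and 352 CPM to 18.6 and 17.5 CPM, a log2 fold change of -4.49 (adjusted p = 9.7e-10, SE 0.21). Pparg, the nuclear receptor of fat cells and alveolar macrophages, fell from 36.8 and 31.4 CPM to 3.76 and 3.58 CPM (adjusted p = 9.5e-08), and Scarb1, an HDL receptor, from 91.2 and 84.4 CPM to 23.4 and 22.1 CPM (adjusted p = 3.9e-07). With total counts 10 members were higher and 10 lower.

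Of 18 iron uptake and storage genes 9 rose and 1 fell, while Tfrc did not pass, as given above. Over all tested genes 30.3% rose and 27.6% fell. With total counts 8 of the list were higher and 7 lower. Falls numbered 2 without culture CD71- replicate 1 or 2 and 0 without tumour CD71+ replicate 1. Fth1, the ferritin heavy chain that stores iron, stood at 5475 and 4798 CPM in the tumour libraries and 1242 and 884 CPM in the culture libraries, a log2 fold change of 2.27 (adjusted p = 6.1e-07, SE 0.21). Slc11a1, the phagosomal metal transporter, rose from 29.9 and 30.1 CPM to 834 and 481 CPM (adjusted p = 8.1e-08), and Hmox1, which frees iron from haem, from 98.1 and 82.8 CPM to 533 and 475 CPM (adjusted p = 4.2e-08). Steap4, a metalloreductase, stood at 89.2 and 115 CPM against 0 and 0.0346 CPM, 1 count in all in culture. Ireb2, an iron-sensing RNA-binding protein, had a log2 fold change of -0.60 (adjusted p = 0.011, SE 0.18), which did not pass without tumour CD71+ replicate 1 (adjusted p = 0.0576). Among 23 antioxidant genes 12 rose and 9 fell, and 8 and 10 with total counts. Txnrd1, thioredoxin reductase, rose from 57.3 and 60.2 CPM to 811 and 598 CPM (adjusted p = 8.4e-09), while Cat, catalase, fell from 70.6 and 68.7 CPM to 14.9 and 9.99 CPM (adjusted p = 5.4e-07) and Mt2, a metallothionein, from 32.6 and 47.2 CPM to 5.59 and 2.45 CPM (adjusted p = 0.0075). The fall of Mt2 did not pass without tumour CD71+ replicate 2 (adjusted p = 0.0647).

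Few proliferation genes passed. Of 33 cell cycle and replication genes 6 rose and 4 fell, below the 30.3% and 27.6% over all tested genes. The rises numbered 2 and 3 without culture CD71+ replicates 1 and 2, and the falls 2 when 1 of those libraries or tumour CD71+ replicate 1 was left out and 7 without tumour CD71+ replicate 2. Mki67, the Ki-67 antigen of cycling cells, stood at 50.95 and 93.1 CPM in the tumour libraries and 117 and 117 CPM in the culture libraries, a log2 fold change of -0.70 (adjusted p = 0.019, SE 0.23). It did not pass without culture CD71+ replicate 1 or 2 or tumour CD71+ replicate 1, with -0.737, -0.741 and -0.351. Pcna, the replication clamp, rose from 35.2 and 26.4 CPM to 73.7 and 71.3 CPM (adjusted p = 2.3e-04), a rise that turned negative with the mature neutrophil scaling. Myc, a growth factor-induced transcription factor, fell from 31.2 and 42.1 CPM to 15.6 and 16.6 CPM (adjusted p = 0.016), and Odc1, its target in polyamine synthesis, rose from 47.6 and 38.4 CPM to 271 and 287 CPM (adjusted p = 4.9e-08). The fall of Myc did not pass without culture CD71+ replicate 2 (adjusted p = 0.0925), nor when tumour CD71+ replicate 1 was left out (0.0766). Of 40 cytosolic ribosomal protein genes none rose and 17 fell, with log2 fold changes of -1.43 to 0.54. That count was 2 without culture CD71+ replicate 1, 7 without tumour CD71+ replicate 1, 11 without tumour CD71+ replicate 2 and 8 without either tumour CD71- library, and 1 gene rose without culture CD71- replicate 1 or 2 or culture CD71+ replicate 1. Of 37 nuclear-encoded respiratory chain genes 5 rose and 7 fell, below the shares over all genes. Those rises numbered 1 without culture CD71+ replicate 2, 2 without tumour CD71+ replicate 1 and 3 without culture CD71+ replicate 1, tumour CD71+ replicate 2 or either tumour CD71- library, and the falls 1, 3 and 3 without culture CD71+ replicate 1, culture CD71+ replicate 2 and tumour CD71+ replicate 1. Of 13 mitochondrially encoded messenger RNAs none rose and 5 fell, with sums of 7348 and 9149 CPM in tumour against 9102 and 13110 CPM in culture, while 1 fell without culture CD71+ replicate 2 and 2 without tumour CD71+ replicate 1.

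The largest falls were genes hardly seen in the tumour libraries. Klk1b11, a kallikrein-related protease (GRCm38.p6 chr7:43995877-43999875, plus strand), stood at 159 and 101 CPM in culture and had no count in tumour, at least 455-fold lower in tumour when that is set at 3 counts per library. Its close relative Klk1b1 stood at 31.4 and 23.6 CPM with no count in tumour, and the reads of these copies may not be separable. Fgf23, a hormone of phosphate balance, stood at 33.5 and 26.02 CPM with no count in tumour, at least 104-fold lower. Car4, a membrane carbonic anhydrase, stood at 5.20 and 2.45 CPM in the tumour libraries and 1085 and 772 CPM in the culture libraries, a log2 fold change of -7.92 (adjusted p = 4.8e-10, SE 0.33). Kcnn3, a calcium-activated potassium channel, fell from 170.5 and 163 CPM to 2.02 and 1.04 CPM (adjusted p = 6.0e-10), and Mgst2, a glutathione transferase, from 141 and 139 CPM to 1.16 and 0.377 CPM (adjusted p = 1.3e-09). Markers of eosinophils, basophils and mast cells went both ways: of 9 tested, 5 were lower in tumour, 2 were higher and 2 did not pass. The rises numbered 1 without tumour CD71+ replicate 1. Among the falls, Epx, eosinophil peroxidase, stood at 6.20 and 10.3 CPM in culture with no count in tumour. Prg2, eosinophil major basic protein, stood at 21.6 and 24.98 CPM against 0 and 0.188 CPM. Of 7 tested megakaryocyte and platelet markers 3 were higher and 3 lower. Gp6, a platelet collagen receptor among the falls, stood at 12.2 and 14.3 CPM in culture with no count in tumour.

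The largest rises were genes absent from culture. Nav3, a neuron navigator protein, stood at 127 and 145 CPM in tumour and had no count in culture, at least 1390-fold higher. Siglech, a lectin that marks microglia and plasmacytoid dendritic cells, stood at 40.1 and 64.4 CPM with no culture count, at least 534-fold higher. Sparc, a matrix protein made by microglia and stroma, stood at 262 and 314 CPM against 0 and 0.0346 CPM, and C4b, a complement component, at 164 and 234 CPM against 0 and 0.0346 CPM, each with 1 count in culture. Tnc, tenascin C, a matrix protein of glioma, stood at 29.95 and 27.05 CPM with no culture count, at least 292-fold higher. Apod, a lipid carrier of the nervous system, and Igfbp3, a binding protein for insulin-like growth factors, stood at 50.2 and 25.4 and 33.8 and 17.6 CPM with no culture count. Of these genes, Siglech is a member of the microglia list above. In the tumour CD71- libraries Nav3 stood at 11.6 and 7.77 CPM, Siglech at 3.08 and 4.16 CPM and Sparc at 66.1 and 48.98 CPM.

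The same contrast of origins in the CD71- libraries served to ask which differences were unlike between the fractions. The test is signed, so a positive value can be a larger rise or a smaller fall in CD71+ cells. The difference of differences passed for 1718 genes (10.8%) in the positive and 752 (4.71%) in the negative direction, and 7584 of the 9245 genes called in CD71+ cells did not pass it. The counts depended on single libraries, and also on the filter, which kept more genes when a library was left out. The positive count was 717 and 691 without culture CD71+ replicates 1 and 2 and 743 and 563 without tumour CD71- replicates 1 and 2. The negative count was 1508 without culture CD71- replicate 1, 297 and 321 without culture CD71+ replicates 1 and 2, 403 without tumour CD71- replicate 2 and 468 without tumour CD71+ replicate 2. Arg1 was the study gene with the largest difference: it stood at 37.3 and 21.4 CPM in tumour CD71- and 241 and 338 CPM in culture CD71- libraries. Its tumour minus culture log2 difference was thus -3.30 in CD71- against -0.74 in CD71+ cells, a difference of 2.56 (adjusted p = 8.8e-04, SE 0.36). Among macrophage markers 8 were positive and 2 negative. Cx3cr1, the fractalkine receptor, gave 3.54 (adjusted p = 1.2e-04, SE 0.35) and Apoe 3.31 (adjusted p = 4.0e-05, SE 0.27), and the macrophage and microglia sums were highest in tumour CD71+ libraries. C3ar1, the receptor for complement C3a, gave 2.99 (adjusted p = 5.6e-05, SE 0.27), and Selenbp1, lower in tumour in both fractions, 3.59 (adjusted p = 0.0043, SE 0.64). Of 13 mitochondrially encoded messenger RNAs 9 were positive, next to sums of 4689 and 2359 CPM in tumour CD71- and 42930 and 81220 CPM in culture CD71- libraries.

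In the negative direction stood, among others, genes that rose in CD71+ cells. Slc7a11 gave -2.40 (adjusted p = 1.5e-04, SE 0.25), Olr1 -2.15 (adjusted p = 4.0e-04, SE 0.26) and Plaur -2.07 (adjusted p = 0.0014, SE 0.32). Cxcl1, a neutrophil attractant, stood at 83.5 and 76.2 CPM in tumour CD71+ and 80.7 and 106 CPM in tumour CD71- libraries, and at 0.428 and 0.450 and 0 and 0 CPM in the culture libraries of these fractions, so that its difference of -6.02 (adjusted p = 0.0039, SE 1.10) rests on the culture levels and, with no count in a group, is not a bound. Itgax, the integrin CD11c, gave -3.03 (adjusted p = 3.4e-04, SE 0.35), Csf2rb -2.03 (adjusted p = 6.7e-04, SE 0.28) and Spp1, osteopontin, -2.77 (adjusted p = 1.2e-04, SE 0.28). These did not pass in the CD71+ contrast itself. There Csf2rb stood at 0.06 (edgeR, adjusted p = 0.81) and Spp1 at 0.39 (edgeR, adjusted p = 0.097), and Itgax passed as higher only under some alternatives. Within the IL-1, TNF and NF-kB list 7 of 24 were negative and none positive, and within the interferon list 3 were positive and 3 negative of 29. For Il1b the difference was -0.21 (adjusted p = 0.61, SE 0.25), for Rsad2 -0.43 (adjusted p = 0.33, SE 0.28), for Hif1a -0.41 (adjusted p = 0.27, SE 0.24), for Ldha -0.20 (adjusted p = 0.66, SE 0.27) and for Vegfa 0.09 (adjusted p = 0.89, SE 0.31), and none of these 5 passed. In the hypoxia list 3 members were positive and 1 negative of 35.

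**Figure D5:**
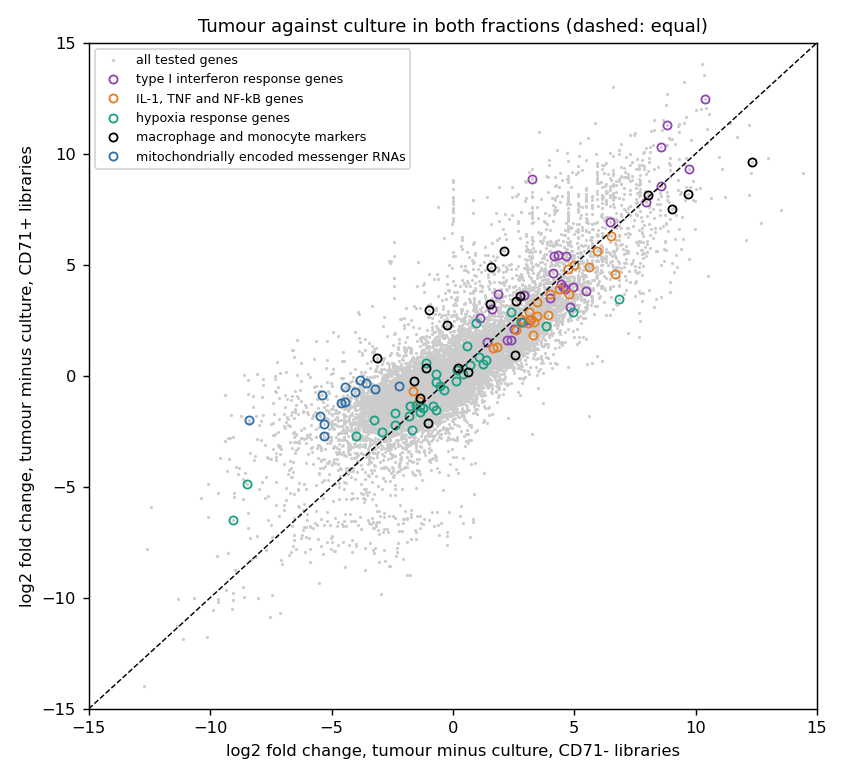
Log2 fold change of tumour against culture in CD71- libraries (horizontal) and CD71+ libraries (vertical) for all tested genes in grey and 5 lists in colour, with a dashed line of equal change. Interferon and hypoxia genes lie along the line, IL-1, TNF and NF-kB genes lie mostly at or below it (median difference -0.43), several macrophage markers lie above it, and the mitochondrially encoded messenger RNAs lie above it at negative values in both.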

How the data were processed

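The authors deposited raw counts per gene for 8 mouse RNA-seq libraries in a table of 55450 genes. Per the submitters' processing notes, FastQC, cutadapt, STAR, featureCounts and DESeq2 were used with build mm10. Versions, roles and the strand setting are not given in the sources used here. All 55450 gene IDs matched GENCODE M21, which gave names, biotypes and exon lengths. The table states each library by origin, fraction and number, and no column was left without a sample.

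The deposited counts were tested with edgeR 4.0.16 and limma 3.58.1 in R 4.3.3. filterByExpr kept 15975 genes, TMM scaled the libraries, and quasi-likelihood fits with robust priors took 4 group means over all 8 libraries (4 residual degrees of freedom, biological coefficient of variation 0.19). Fold changes are tumour minus culture in CD71+ libraries. The difference of differences subtracts the same contrast in CD71- libraries. P-values were adjusted by Benjamini-Hochberg over all tested genes, and 0.05 was the threshold to pass. The code was checked on simulated data with 200 changed genes. A group without counts was set at 3 counts per library, which covers counting error only.

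Named genes were a set tied to the study's question, the largest changes with at least 20 CPM in the higher group, the highest genes, and from each list the leading called members with at least 5 CPM and the highest uncalled ones. Ankrd37, Bnip3, C3ar1, Ccl3, Csf3r, Cx3cr1, Cxcl10, Egln3, Egr1, H2-D1, Hk2, Hsp90aa1, Ifit1, Il1rn, Irf7, Isg15, Mxd1, Oasl2, Osm, Pdk1, Pgk1 and Plin2 (22 genes) were named outside this rule after their values were seen. The promoters shown and the interferon response motif were chosen after seeing the data, as was the comparison of Tfrc between fractions. The genes and lists were chosen with earlier results of these data known.

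Alternatives were DESeq2 1.42.0 (its size factors, and its Wald test), total counts, scaling on mature neutrophil genes, no filter, a filter at 5 CPM, CD71+ libraries alone, a replicate block and leaving out each library.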

Additional observations from a re-analysis of the deposited data

Results flagged for a closer look

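For 17 of the genes named in the text the tumour against culture difference itself differed between CD71+ and CD71- libraries by 4-fold or more, a log2 difference of at least 2, in edgeR's quasi-likelihood test of that difference with Benjamini-Hochberg adjustment. Values are given as the CD71+ contrast minus the CD71- contrast on the log2 scale.

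The positive values belonged to the complement component C4b (6.40), the mitochondrial mt-Co1 (3.64), Selenbp1 (3.59), the fractalkine receptor Cx3cr1 (3.54), Apoe (3.31), the complement receptor C3ar1 (2.99), Arg1 (2.56) and Ldhb (2.21). C4b had 1 count in the culture CD71+ libraries and 4 in the culture CD71- libraries, so the size of its difference depends on the prior count of the fit, and it did not pass without culture CD71- replicate 1 (5.76, adjusted p = 0.0985). C3ar1 stood at 169 and 187 CPM in tumour CD71+ libraries and at 16.5 and 16.5 CPM in tumour CD71- libraries, against 262 and 205 CPM and 197 and 148 CPM in the matching culture libraries. mt-Co1 stood at 24956 and 47419 CPM in culture CD71- libraries and at 6493 and 8656 CPM in culture CD71+, 5913 and 7488 CPM in tumour CD71+ and 3399 and 1726 CPM in tumour CD71- libraries. For Ldhb the difference did not pass when 1 of 5 libraries was left out: replicate 2 of culture CD71- (1.66), of culture CD71+ (1.89), of tumour CD71+ (1.80) or of tumour CD71- (2.32), or replicate 1 of the last (1.88).

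The negative values belonged to Csf2rb (-2.03), Plaur (-2.07), the AP-1 subunit Fosb (-2.10), Olr1 (-2.15), Mgst2 (-2.31), Slc7a11 (-2.40), Spp1 (-2.77), Itgax (-3.03) and the chemokine Cxcl1 (-6.02). Itgax stood at 281 and 209 CPM in tumour CD71+ and 536 and 296 CPM in tumour CD71- libraries, and at 168 and 160.1 CPM in culture CD71+ and 34.9 and 33.2 CPM in culture CD71- libraries. Csf2rb stood at 7079 and 5417 CPM in tumour CD71- libraries against 1535 and 1394 CPM in culture CD71- libraries. Mgst2 did not pass when replicate 2 of tumour CD71- (-2.05) or of tumour CD71+ (-1.74) was left out. Cxcl1 had no count in the culture CD71- libraries.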

How the results depend on the processing

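Numbers of genes called depended on the scaling. With total counts 7948 genes were lower and 6318 of them at least 2-fold, and the difference between fractions passed for 2738 genes in the positive and 395 in the negative direction. With scaling on mature neutrophil genes 1804 were higher and 11719 lower (1624 and 11090 at least 2-fold), and the difference passed for 3199 and 292. The negative difference count was 1212 with DESeq2 size factors and 1388 with the DESeq2 Wald test. These causes were not tested. The other counts stayed within 1.5 times under no filter, the stricter filter, CD71+ libraries alone and DESeq2. With 1 library left out the filter kept 16852 to 17221 genes rather than 15975, so the ranges given next are over other sets of genes.

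With 1 library left out, genes higher ranged from 3939 to 5477, lower from 3095 to 5061, at least 2-fold higher from 3523 to 4419 and lower from 2542 to 3435, the positive difference from 563 to 2101 and the negative from 297 to 1508.

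Single genes changed sign with total counts: Adgre1 (-0.341), Csf1r (-0.337), Csf2rb (-0.622), Itgam (-0.553), Itgax (-0.106), Lyz2 (-0.344), Spp1 (-0.286), Tnfrsf10b (-0.175) and Vegfa (-0.439). With the mature neutrophil scaling the same held for Adgre1 (-1.54), Csf1r (-1.53), Csf2rb (-1.82), Hk2 (-0.715), Il1rn (-0.018), Itgam (-1.75), Itgax (-1.31), Lyz2 (-1.53), Olr1 (-0.064), Pcna (-0.632), Slc16a3 (-0.680), Slc2a1 (-1.05), Spp1 (-1.47), Thbs1 (-0.789), Tnfrsf10b (-1.38) and Vegfa (-1.65). Alox5ap turned to 0.008 with DESeq2 size factors and with the Wald test and to 0.005 with the stricter filter, and Csf2rb to -0.063 with no filter. With 1 library left out, values on both sides of 0 were met by 5 genes that had not passed: Alox5ap from -0.287 to 0.106, Ldha from -0.361 to 0.096, Csf2rb from -0.142 to 0.172, mt-Co1 from -0.407 to 0.006 and Vegfa from -0.028 to 0.414. Signs turned without culture CD71+ replicate 1 (Alox5ap, Ldha), culture CD71+ replicate 2 (Csf2rb, mt-Co1) or tumour CD71+ replicate 1 (Alox5ap, Csf2rb, Vegfa). The difference of Tfrc between fractions, with alternatives chosen after seeing the data, turned to 0.396 in tumour with the mature neutrophil scaling, and in culture to -0.013 with DESeq2 size factors and -0.176 without culture CD71- replicate 2 (from -0.176 to 0.308 with 1 library left out). Slc2a1 (0.15) and Thbs1 (0.41) did not pass with total counts, nor Cd274 (0.02), Fth1 (0.41), H2-D1 (0.30) and Sirt1 (0.23) with the mature neutrophil scaling.

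The labels do not say whether CD71+ and CD71- libraries of the same number came from the same animals or cultures. Deviations of same-numbered libraries correlated at -0.0734. This single value does not separate pairing of fractions within an origin from pairing across origins, so it cannot decide whether the fractions were paired. Pairing within an origin was not tested, and the main fit treats the libraries as unpaired. With the replicate block 4620 genes were higher and 4097 lower, 3846 and 2983 at least 2-fold, and the difference passed for 1383 and 615.

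With 4 residual degrees of freedom, small changes are poorly resolved. Genes with few counts in a group are given as levels or bounds.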
